A study of Mus musculus with 10 samples.

Results

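The 10 genes of polyamine synthesis and methionine salvage described here were measured in granulocyte-macrophage progenitors (GMPs), the bone marrow cells that give rise to neutrophils and monocytes. They were chosen by name, as ornithine decarboxylase and its regulators (Odc1, Azin1, Oaz1, Oaz2), the enzymes that build and acetylate polyamines (Amd1, Srm, Sms, Sat1) and 2 methionine salvage enzymes (Mtap, Mri1). They are 10 of the 51717 annotated genes that the files covered, and Adi1, another salvage enzyme, was not among them. RNA-seq compared GMPs of 5 WT samples, which carried ROSA26 CreER+/- alone, with GMPs of 5 recent Mpc2 KO samples, which carried Mpc2fl/fl and ROSA26 CreER+/-. Mpc2 encodes a subunit of the carrier that brings pyruvate into mitochondria, and the comparison asked how GMP transcripts differ just after that carrier is lost. The samples of both groups were given as male and of the C57Bl6/N strain. Mice of both groups ate tamoxifen chow for 2 wk until they were taken. CreER and tamoxifen were thus shared, and the labelled genotypes differed in the floxed alleles. The cells were CD45.2+ GMPs of donor origin, sorted from the marrow of chimeras. The paper describes mixed chimeras, in which irradiated mice of another line received donor marrow together with WT marrow of that line. ROSA26 is active in most cell types, so CreER was not limited to GMPs. Each WT library held the RNA of 1 mouse, whereas each recent KO library pooled 2 mice, so the spread of the KO group is that of pools. The ages of the mice are not given in the sources used here.

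Polyamines (putrescine, spermidine and spermine) are small positively charged molecules that bind nucleic acids, and proliferating cells need them. ODC1 makes putrescine from ornithine, AMD1 makes the aminopropyl donor from S-adenosylmethionine, and SRM and SMS add aminopropyl groups to give spermidine and spermine. Each addition releases methylthioadenosine, which MTAP, MRI1 and later enzymes of the salvage pathway turn back into methionine. Antizymes, encoded by Oaz1 and Oaz2, bind ODC1 and send it to the proteasome, and the antizyme inhibitor encoded by Azin1 binds antizyme in its place.

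None of the 10 genes passed the test between recent KO and WT GMPs. Of these, 9 had enough reads to be tested, and their log2 fold changes lay between -0.18 (Sat1) and 0.20 (Mtap). The tests used edgeR on reads summed per gene, over 12381 genes with adjustment across all of them, and levels are given as CPM, normalized for the depth and composition of the library. Of all genes tested, 41 passed an adjusted p of 0.05, which is 0.331%, with 15 higher and 26 lower in KO GMPs. At an unadjusted p of 0.05, 1 of the 9 (Mtap) was called, against 10.2% of all genes. No gene of the 9 had KO samples that lay wholly outside the WT samples, which was so for 2.43% of all genes. Their median log2 fold change was 0.02, beside -0.002 for all genes, and 5 of the 9 values were positive.

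Libraries held 14033776 to 19745405 estimated reads. Mpc2, the targeted gene, stood at 61.0, 111, 95.2, 117 and 60.9 CPM in WT GMPs and at 27.7, 17.1, 43.9, 37.0 and 35.0 CPM in recent KO GMPs. All 5 KO samples were below all 5 WT samples (log2 fold change -1.46, SE 0.24, adjusted p = 0.0156 by edgeR, exact two-sided permutation p = 0.00794, the smallest that 5 against 5 allow). It was lower under all 22 alternatives, and 6 of them, among them robust dispersions and the TPM scale, took the adjusted p above 0.05 (to at most 0.214). The 12 GMP markers, among them Mpo and Elane, were all measured. None passed the adjusted test, 8 of 12 had an unadjusted p under 0.05, and their summed level was 90261 to 127518 CPM in WT and 53886 to 92173 CPM in KO samples. The lowest sum was that of KO replicate 3. Mpo weighed most in this sum (WT mean 61005 CPM), so it does not count GMPs. Of all samples, KO replicate 3 was lowest in Mpo (31826 CPM) and Elane (8375 CPM). It was highest in Kit (47.7 CPM), Cd34 (362 CPM) and Cd27 (104 CPM), from the same list. It also had the highest summed erythroid markers (309 CPM, with 51.5 to 96.7 CPM in WT). Its summed monocyte markers were the lowest (752 CPM, with 2120.03 to 3480.1 CPM in WT). KO replicates 4 and 5 shifted the same way. Their Hba-a1 was 38.8 and 33.7 CPM (1.13 to 11.5 CPM in WT), and their Ly6c2 was 1588 and 1668 CPM (1997 to 3375 CPM in WT). KO replicates 1 and 2 lay inside the WT range for both genes (Hba-a1 6.26 and 7.41 CPM, Ly6c2 3055 and 2968 CPM). Of 8 macrophage markers, 3 passed the test (C1qa, C1qb and C1qc, higher in KO samples), and 7 of 8 log2 fold changes were positive. Adgre1 went the other way (means of 3.02 CPM in WT and 2.29 CPM in KO samples), and Cd163 was nearly level (2.63 and 2.69 CPM). The sum of all 8 was 20.02 to 39.5 CPM in WT and 41.4 to 73.9 CPM in KO samples. Of 10 erythroid, 5 monocyte and 10 maturing neutrophil markers, 9, 4 and 9 were tested and none passed. An unadjusted edgeR p under 0.05 was held by 6, 3 and 5 of them, against 10.2% of all genes. All 9 erythroid log2 fold changes, 7 of 9 neutrophil and 0 of 4 monocyte ones were positive. The 6 stem and 7 basophil, mast cell and eosinophil markers were all tested and none passed. Of these, 2 and 5 had an unadjusted edgeR p under 0.05, and 6 of 6 and 3 of 7 log2 fold changes were positive. The neutrophil markers summed to 204 to 546 CPM in WT and 208 to 924 CPM in KO samples. Of 5 megakaryocyte markers 2 were tested and none passed. The sum of the 5 did not overlap between groups (8.08 to 15.4 CPM in WT, 17.2 to 27.1 CPM in KO samples), and neither did Pf4 (0.930 to 4.49 and 5.38 to 11.5 CPM). Fcgr3, a GMP marker, did not overlap either (357 to 456 CPM in WT, 153 to 318 CPM in KO samples, adjusted p = 0.107 by edgeR). Among tested markers this held for 1 of 12 on the GMP list, 4 of 8 macrophage and 1 of 2 megakaryocyte markers. None did so on the other marker lists, against 2.43% of all genes. The 6 T cell markers summed to at most 4.15 CPM in any sample. The part of these cell types in the values of the 10 genes was not tested. In bulk samples, fewer cells of a type and less RNA per cell cannot be told apart.

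Odc1, the rate-limiting enzyme of polyamine synthesis, lies at chr12:17544794-17551505 on the plus strand of GRCm38. It stood at 233, 231, 222, 251 and 248 CPM in WT samples and at 262, 259, 266, 231 and 226 CPM in recent KO samples. The 3 highest KO samples were above the highest WT sample and the other 2 lay among the WT samples, so the groups overlapped. The means were 237 ± 12.3 and 249 ± 18.8 CPM (SD, n = 5 each), a log2 fold change of 0.07 with a 95% interval of -0.07 to 0.21 (adjusted p = 0.792).

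The mouse genome holds 18 annotated copies of Odc1 with at least 90% identity over at least 200 bases, and of these Gm7993 alone reached 1 CPM in a group. Gm7993 is a processed pseudogene at chr5:95974240-95975623, and over 1380 aligned bases it differs from Odc1 at 53. The first 60 coding bases of Odc1 and the start of Gm7993 are shown (GENCODE M21 transcripts, GRCm38, plus strand) to show the kind of difference that tells a read of the gene from one of the copy. Capitals mark the position that differs, and this window holds fewer differences than the average of the alignment.

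Odc1-201, chr12:17547299-17547358: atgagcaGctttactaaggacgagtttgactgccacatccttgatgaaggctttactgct

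Gm7993-201, chr5:95974240-95974299: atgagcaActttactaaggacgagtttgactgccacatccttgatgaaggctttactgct

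Gm7993 was listed at 0 in all 5 WT samples and at 61.6, 36.9, 88.05, 52.3 and 57.9 estimated reads in the 5 recent KO samples. These reads were 2.59 to 4.36 CPM, with a mean of 3.48 ± 0.80 CPM (SD, n = 5). Set against a floor of 3 counts per WT library, Gm7993 was at least 19.2-fold higher in KO GMPs. It had passed the filter on low counts through the KO samples alone, so this is given as a description, with no test. It was small beside its parent. Odc1 itself took 99.6% ± 0.14 of the reads of Odc1 and all copies in WT samples and 98.2% ± 0.31 in KO samples (SD, n = 5). That share depends on the Gm7993 reads, so it is given with no test either. With the copies added, the Odc1 sum was 238 ± 12.4 CPM in WT and 253 ± 19.2 CPM in KO GMPs, a ratio of 1.06 (exact permutation p = 0.175). Salmon divides reads between near-identical sequences, so the split between Odc1 and Gm7993 is an estimate.

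**Figure D1:**
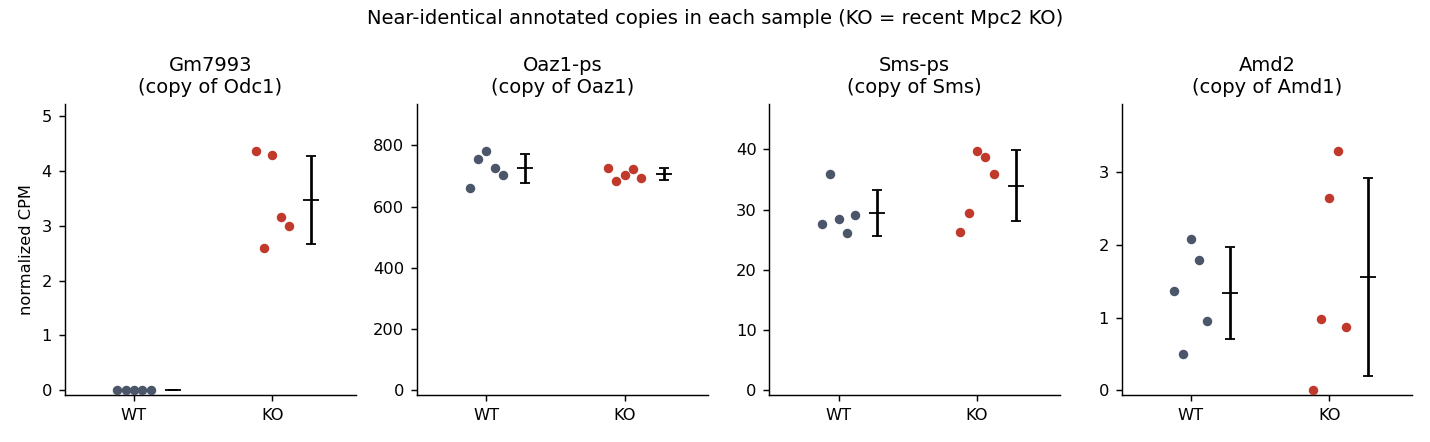
Normalized CPM of the 4 annotated copies that reached 1 CPM in a group, for the 5 WT and 5 recent Mpc2 KO samples (points), with the mean and SD beside them (bar). Gm7993 is at 0 in every WT sample and between 2.59 and 4.36 CPM in the KO samples, while the groups overlap for Oaz1-ps, Sms-ps and Amd2.

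Oaz1 (chr10:80826656-80829290) and Oaz2 (chr9:65668001-65690300), both on the plus strand, encode antizymes through a programmed frameshift. The ribosome must skip a base at a stop codon to reach the second reading frame, and polyamines are known to favor the skip. The sites are shown (GENCODE M21, GRCm38, plus strand) because the annotation writes the skip as missing bases in separate transcripts. In the transcripts without the skip, capitals mark the codon before the stop and the stop codon itself. In the others, capitals mark the bases that flank the skipped position.

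Oaz1-205, chr10:80828272-80828317: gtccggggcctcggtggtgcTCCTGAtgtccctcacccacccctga

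Oaz1-207, the same region with 1 base skipped: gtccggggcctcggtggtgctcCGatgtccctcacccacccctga

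Oaz1-201, the same region with 4 bases skipped: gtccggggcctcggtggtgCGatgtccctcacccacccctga

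Oaz2-205, chr9:65686249-65686294: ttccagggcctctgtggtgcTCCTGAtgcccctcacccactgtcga

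Oaz2-206, the same region with 1 base skipped: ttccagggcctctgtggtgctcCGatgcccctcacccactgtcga

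Oaz1 was the most abundant of the genes. It stood at 1543, 1476, 1508, 1412 and 1412 CPM in WT samples and at 1489, 1451, 1420.4, 1396 and 1361 CPM in recent KO samples. The KO samples covered the lower part of the WT range and 2 of them were below it (log2 fold change -0.05, 95% interval -0.18 to 0.09, adjusted p = 0.863). With scaling by library size alone the value was 0.02, so Oaz1 has no direction that holds under every scaling. Oaz1-207 and Oaz1-201, which differ at the skipped bases shown and also upstream of them, took 51.7% ± 1.7 and 41.2% ± 1.19 of the Oaz1 reads in WT samples and 51.5% ± 2.94 and 42.0% ± 2.26 in KO samples (SD, n = 5). Oaz1-205, which keeps the stop codon, took 4.99% ± 0.79 and 4.34% ± 0.97. These shares tell which annotated sequence the reads matched best. They do not measure how often ribosomes shift frame.

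A processed pseudogene, Oaz1-ps, at chr17:17345456-17346140 on the minus strand, differs from Oaz1-207 at 1 of 684 aligned bases, gaps not counted. It has no mismatch to Oaz1-205 over 513 aligned bases. Reads that fit both were divided by estimate, and the share of Oaz1-205 rests on that division. Oaz1-ps was listed at 659 to 780.2 CPM in WT and 684 to 728 CPM in recent KO samples. Oaz1 took 67.0% ± 1.76 of the joint reads in WT and 66.8% ± 0.81 in KO samples (exact permutation p = 0.937), and the joint level was 2195 ± 69.9 and 2130.0 ± 57.4 CPM. The division between Oaz1 and this copy is uncertain, but neither the share nor the joint level separated the groups.

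Oaz2 stood at 67.1, 63.3, 56.3, 52.4 and 64.2 CPM in WT samples and at 66.4, 73.9, 65.2, 65.0 and 63.7 CPM in recent KO samples. One KO sample was above the WT range and the other 4 lay inside it (log2 fold change 0.14, 95% interval -0.03 to 0.30, adjusted p = 0.573). Azin1, the antizyme inhibitor, at chr15:38487427-38519266 on the minus strand, stood at 45.5, 48.5, 50.3, 49.0 and 51.0 CPM in WT and at 46.1, 43.1, 48.9, 45.6 and 47.8 CPM in KO samples. One KO sample was below the WT range (log2 fold change -0.08, 95% interval -0.21 to 0.06, adjusted p = 0.753). When the fit allowed for the length of the transcripts present in each sample, the Azin1 value was -0.26 (adjusted p = 0.522, the lowest of 22 alternatives that reached 0.992). The Azin1 reads came from transcripts whose shares varied widely between samples of a group. Azin1-203 took 49.8% ± 8.25 of them in WT and 53.7% ± 7.42 in KO samples, and Azin1-201 took 34.8% ± 8.88 and 29.1% ± 7.16.

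**Figure D2:**
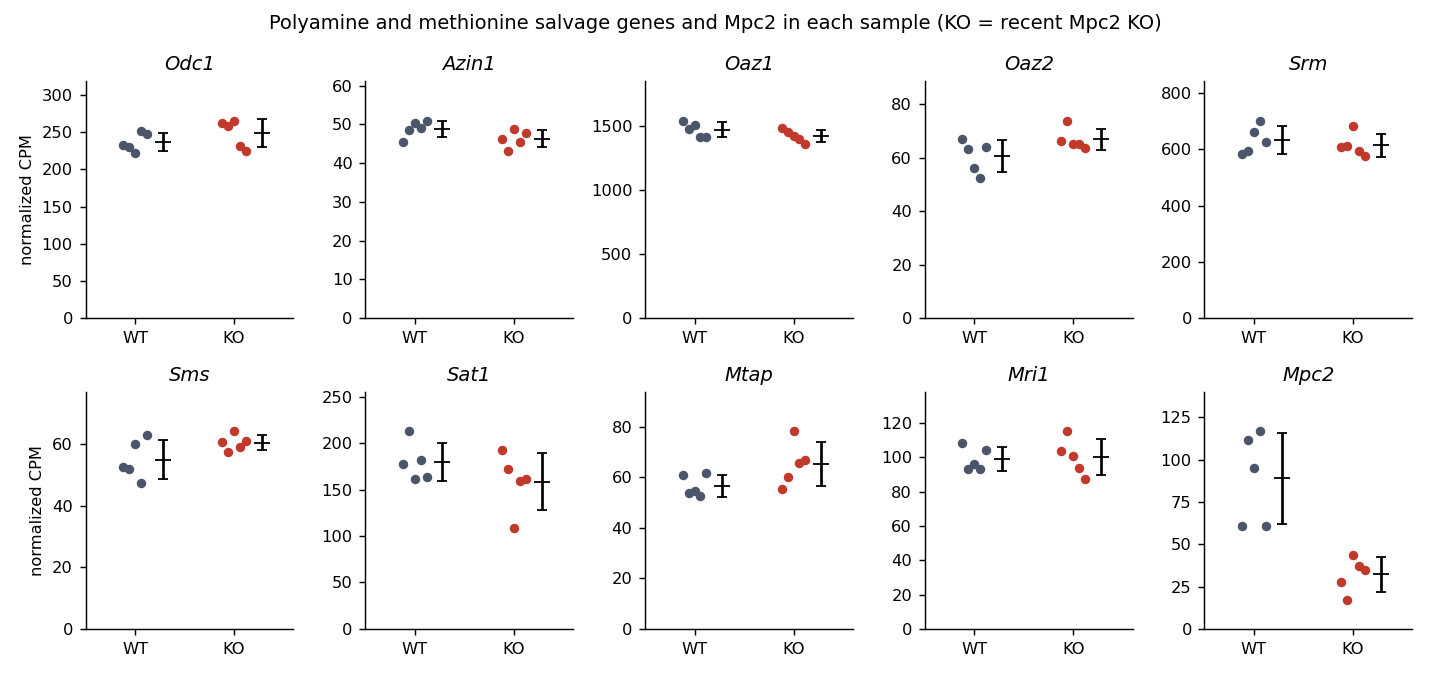
Normalized CPM of the 9 tested genes and of Mpc2 in each of the 5 WT and 5 recent Mpc2 KO samples (points), with the mean and SD beside them (bar), on axes that start at 0. The groups overlap for all 9 genes, and for Mpc2 the KO samples (17.1 to 43.9 CPM) lie below the WT samples (60.9 to 117 CPM).

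Amd1, S-adenosylmethionine decarboxylase, could not be measured reliably here. The Amd1 transcripts that matched the older annotation held 1.65 to 31.8 estimated reads per sample, too few for the test. The authors quantified a newer annotation, and 3628 of its transcripts could not be assigned to a gene here. Whether any of these belongs to Amd1 was not tested, so the level of Amd1 is not known from the assigned reads. Counts were 6.9, 4, 4.5, 4.7 and 31.8 reads in WT samples and 1.6, 1.7, 28.2, 4 and 6.1 reads in recent KO samples, with 1 high sample in each group. Amd2, a copy that is 99.6% identical over 3202 bases, was listed at 0.499 to 2.08 CPM in WT and at 0 to 3.29 CPM in KO samples (adjusted p = 0.935).

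Srm and Sms encode the aminopropyltransferases spermidine synthase and spermine synthase. Srm, at chr4:148591503-148594993 on the plus strand, stood at 581, 593, 663, 702 and 625 CPM in WT samples and at 608, 612, 683, 595 and 574 CPM in recent KO samples. The groups overlapped almost wholly (log2 fold change -0.04, 95% interval -0.19 to 0.11, adjusted p = 0.889). The sign of Srm turned with library size scaling (0.03) and on the TPM scale (0.01). Sms, at chrX:157443855-157492287 on the minus strand, stood at 52.6, 51.8, 59.9, 47.4 and 63.0 CPM in WT and at 60.6, 57.6, 64.2, 58.9 and 61.0 CPM in KO samples. The KO samples sat in the upper part of the WT range, 1 of them above it (log2 fold change 0.14, 95% interval -0.03 to 0.31, adjusted p = 0.597).

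The Sms reads are shared with Sms-ps, a pseudogene at chrX:62775585-62776685 on the minus strand that is identical to Sms-201 over all 1101 of its bases. Sms-ps was listed at 26.0 to 35.9 CPM in WT and 26.2 to 39.7 CPM in recent KO samples. Sms and its 8 copies together stood at 84.5 ± 7.46 CPM in WT and 94.5 ± 7.45 CPM in KO GMPs (SD, n = 5), a ratio of 1.12 (exact permutation p = 0.0794). Sms itself took 65.0% ± 3.72 and 64.2% ± 3.83 of that sum. Its annotated nonsense-mediated decay transcript, Sms-204, took 52.0% ± 2.27 of the Sms reads in WT and 52.1% ± 5.22 in KO samples. Sms-201, the coding transcript, took 44.2% ± 2.37 and 44.5% ± 5.56. Reads of the sequence that Sms-201 shares with Sms-ps were divided between them by estimate. Which Sms transcript was the more abundant is therefore not known from these shares.

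Sat1, spermidine/spermine acetyltransferase, marks polyamines for export or breakdown and lies at chrX:155213132-155216449 on the minus strand. It stood at 177, 213, 162, 182 and 163 CPM in WT samples and at 192, 172, 109, 159 and 162 CPM in recent KO samples. KO replicate 3 was the lowest by a wide margin and the other 4 KO samples lay within or near the WT range. The log2 fold change was -0.18 with a 95% interval of -0.45 to 0.09 (adjusted p = 0.684), the widest of the 9 intervals. Without KO replicate 3 it was -0.07 (adjusted p = 0.907, the highest of 22 alternatives that went down to 0.462).

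Sat1 transcripts include Sat1-207, annotated as a target of nonsense-mediated decay, and polyamines are known to favor the form without its extra exon of 110 bases. The start of that exon is shown after the last 12 bases of the exon before it, with the premature stop codon in capitals. It lies on the minus strand of chrX, the exon at chrX:155215121-155215230 of GRCm38.

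Sat1-207: ggacccctgaaggttacagtctcTAGcttc

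The transcript with the extra exon took 2.35%, 2.84%, 1.55%, 2.37% and 0.80% of the Sat1 reads in WT samples and 1.26%, 3.41%, 1.29%, 2.53% and 2.41% in recent KO samples. The means were 1.98% ± 0.81 and 2.18% ± 0.91, and the samples overlapped (exact permutation p = 0.730). Sat1-201, the coding form, took 94.8% ± 1.31 and 95.02% ± 0.66 of the reads.

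Mtap and Mri1 catalyze the first steps of methionine salvage, from methylthioadenosine to methylthioribulose phosphate. Mtap, at chr4:89137122-89181081 on the plus strand, stood at 60.9, 53.6, 54.4, 52.5 and 61.7 CPM in WT samples and at 55.3, 60.2, 78.1, 65.6 and 66.7 CPM in recent KO samples. The 3 highest KO samples were above the highest WT sample and the other 2 were inside the WT range. The means were 56.6 ± 4.31 and 65.2 ± 8.57 CPM (SD, n = 5), a log2 fold change of 0.20 with a 95% interval of 0.01 to 0.40, an unadjusted p of 0.0408 and an adjusted p of 0.456 by edgeR. KO replicate 3 held the highest Mtap value, and without it the log2 fold change was 0.13 (adjusted p = 0.782, the highest of 22 alternatives that went down to 0.288).

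Mri1, at chr8:84249906-84257326 on the minus strand, stood at 108, 93.2, 96.1, 93.0 and 104 CPM in WT samples and at 104, 115, 101, 94.1 and 87.3 CPM in recent KO samples. The groups had nearly the same mean, 99.0 ± 6.93 and 100.2 ± 10.5 CPM (log2 fold change 0.02, 95% interval -0.15 to 0.18, adjusted p = 0.966). The sign was not stable. It turned on leaving out WT replicate 2, WT replicate 4 or KO replicate 2, and the fit with a length offset gave -0.14 (adjusted p = 0.649, the lowest of 22 alternatives that reached 0.996). The main coding transcript, Mri1-203, took 78.7% ± 3.2 of the Mri1 reads in WT and 83.8% ± 4.19 in KO samples (exact permutation p = 0.0794, adjusted p = 0.765). The annotated decay transcript Mri1-201 took 2.25% ± 1.29 in WT, and was at 0 in 3 of the 5 KO samples with a mean of 0.42% ± 0.66 (exact permutation p = 0.0159, adjusted p = 0.787 over the 19934 transcripts with at least 1% of their gene).

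**Figure D3:**
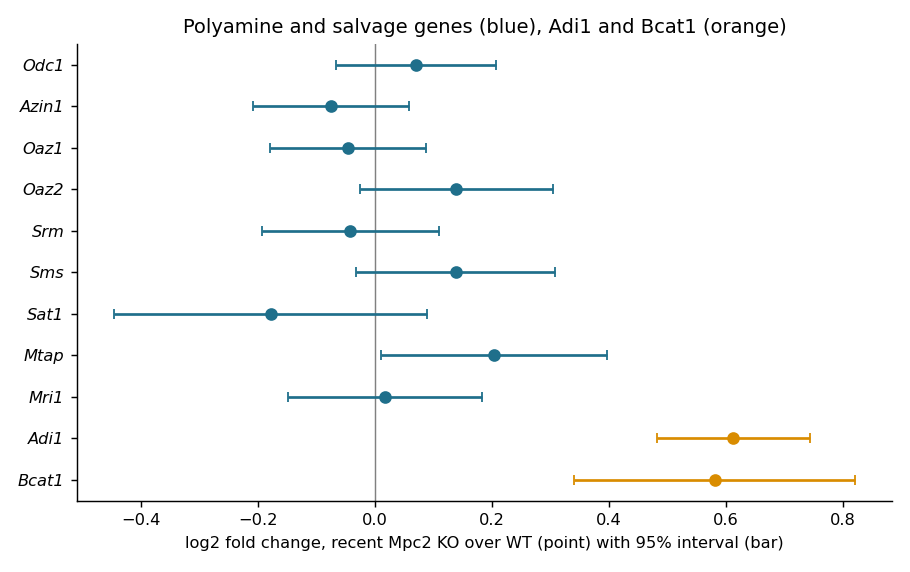
Log2 fold change of recent Mpc2 KO over WT GMPs by edgeR (points) with 95% intervals (bars) for the 9 tested genes (blue) and for Adi1 and Bcat1 (orange). The intervals of 8 of the 9 genes cross 0 and that of Mtap runs from 0.01 to 0.40, while those of Adi1 (0.48 to 0.74) and Bcat1 (0.34 to 0.82) lie above it.

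Among the transcripts of these genes, 13 transcripts of 6 genes held at least 10 reads on average and 5% of their gene in a group. None was called after adjustment over all 15212 transcripts tested, where the smallest adjusted p was 0.694 and 0 were called. None of the 13 had groups that did not overlap, against 1.14% of all transcripts, and 2 of 13 had an exact permutation p under 0.05, against 6.45%. Those were the main Odc1 transcripts, whose shares are complements of each other. Odc1-205, annotated for nonsense-mediated decay, took 8.53%, 10.6%, 8.93%, 6.48% and 10.3% of the Odc1 reads in WT samples and 11.4%, 10.5%, 9.98%, 12.4% and 12.6% in recent KO samples. The 3 highest KO samples were above every WT sample, and the means were 8.98% ± 1.67 and 11.4% ± 1.14 (SD, n = 5, exact permutation p = 0.0397, adjusted p = 0.738). The coding Odc1-201 was at 90.8% ± 1.62 and 88.4% ± 1.17.

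**Figure D4:**
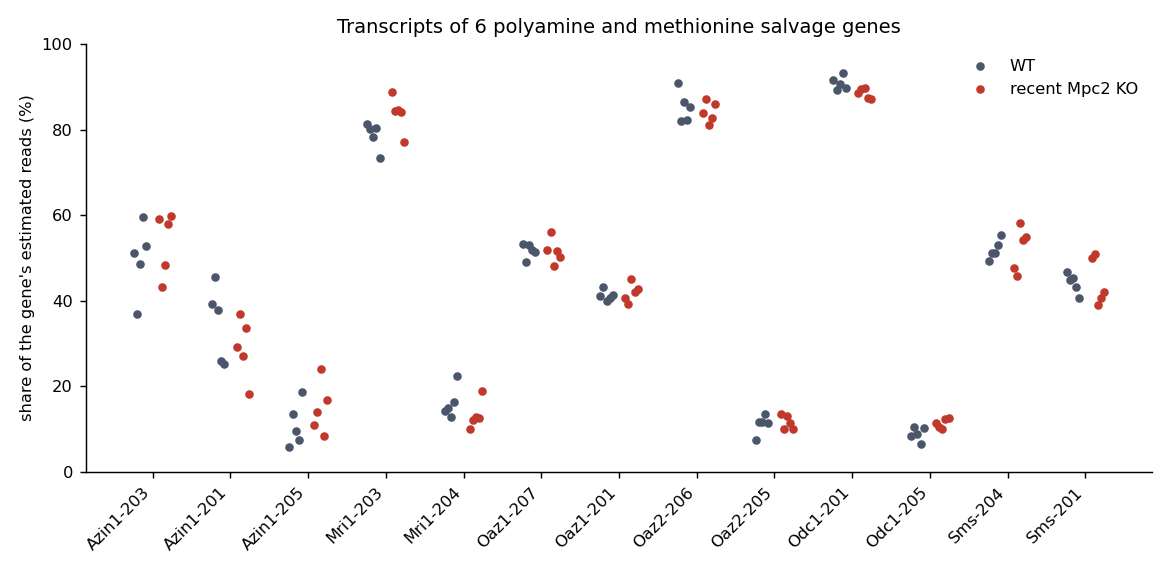
Share of a gene's estimated reads taken by each of the 13 tested transcripts, in percent, for the 5 WT (grey) and 5 recent Mpc2 KO samples (red). The groups overlap for every transcript, and Odc1-205 is at 6.48% to 10.6% in WT and 9.98% to 12.6% in KO samples.

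Levels of different genes were compared as TPM, which accounts for transcript length. In WT GMPs, Oaz1 was the highest at 1669 ± 150 TPM (SD, n = 5), followed by Srm at 482 ± 19.2, Sat1 at 160 ± 20.8, Odc1 at 95.7 ± 7.6, Mri1 at 49.0 ± 7.18, Oaz2 at 36.4 ± 5.44, Sms at 23.9 ± 3.72, Mtap at 17.2 ± 2.3 and Azin1 at 12.1 ± 1.0 TPM. The place of Sms rests on how reads were divided with Sms-ps, which was listed at 28.1 ± 4.14 TPM in WT, above Sms itself. Sms and Sms-ps together stood at 52.0 ± 6.4 TPM in WT and 61.1 ± 9.24 TPM in KO samples, above the means of Mri1 and Oaz2. The order of means was the same in recent KO GMPs, with Oaz1 at 1639 ± 62.0 TPM and Azin1 at 10.6 ± 2.14 TPM. Within a group, Mri1 and Oaz2 overlapped, as did Sms and Mtap, and Sat1 and Odc1 overlapped in KO samples only. The other neighbors in the order did not overlap within either group. The antizyme gene Oaz1 was above the antizyme inhibitor gene Azin1, and the spermidine synthase gene Srm above the spermine synthase gene Sms, in every sample of both groups. On this scale Mtap was at 1.21 times its WT mean in KO GMPs, Oaz2 at 1.17 times, Sms at 1.15 times and Odc1 at 1.10 times, none with an exact permutation p below 0.0794.

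**Figure D5:**
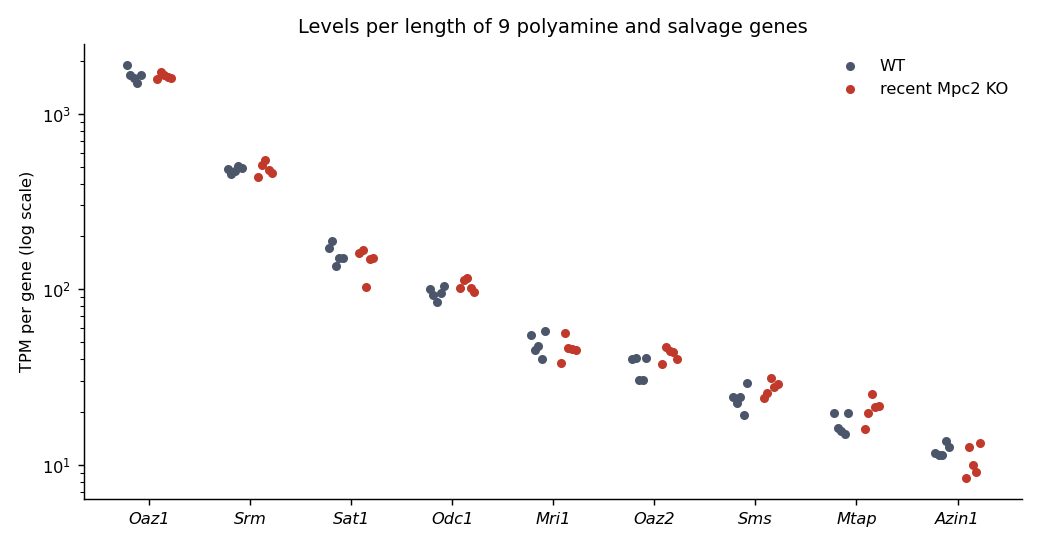
TPM of 9 genes (log axis) in the 5 WT (grey) and 5 recent Mpc2 KO samples (red), ordered by the WT mean. Oaz1 and Srm stand above the rest in every sample, and Mtap and Azin1 are the lowest, at 17.2 and 12.1 TPM in WT.

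The other genes of these pathways were taken from 6 lists, of 4 to 15 genes. Of 15 other polyamine genes (oxidases, transporters, further antizymes), 9 were tested and none passed in either direction. The smallest p-values were those of Gpc1 (36.5 ± 2.63 CPM in WT, 29.3 ± 10.6 CPM after recent KO, adjusted p = 0.629), Atp13a2, a lysosomal polyamine exporter (25.0 ± 3.51 and 29.0 ± 6.07 CPM, adjusted p = 0.665), and Azin2 (3.41 ± 0.79 and 4.42 ± 1.64 CPM, adjusted p = 0.686). Of the 4 hypusine genes, whose enzymes use spermidine to modify the translation factor eIF5A, none passed. Eif5a stood at 4845 ± 487 and 4816 ± 409 CPM (log2 fold change -0.01, adjusted p = 0.986), and its sign turned with upper quartile or library size scaling (0.01 and 0.07) and on the TPM scale (0.06). Dohh stood at 109 ± 5.76 and 103 ± 8.58 CPM (adjusted p = 0.764), and Eif5a2 was near 1 CPM (adjusted p = 0.658).

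Ornithine for ODC1 comes from arginine or from glutamate-linked enzymes. Of 10 genes of ornithine and arginine supply, 5 were tested and none passed. Arg1 and Arg2, the arginases, stood at means of 0.02 to 0.15 CPM, and Otc and Nos2 were at 0 in every sample. Ass1, argininosuccinate synthase, stood at 20.5 ± 2.04 and 16.6 ± 1.93 CPM (WT and recent KO), with 4 of 5 KO samples below the WT range (log2 fold change -0.30, adjusted p = 0.291). Gatm stood at 197 ± 39.7 and 166 ± 19.3 CPM (adjusted p = 0.510) and Aldh18a1 at 35.6 ± 4.15 and 38.5 ± 1.9 CPM (adjusted p = 0.709).

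Of 10 other methionine salvage genes, 8 were tested and 2 were called, both higher in KO GMPs, against 0.331% of all genes called. The list was drawn up with earlier results of these data known, so the count does not measure how salvage genes respond. Adi1, the dioxygenase of the late salvage pathway, stood at 117, 103, 118, 104 and 108 CPM in WT samples and at 163, 184, 160.4, 169 and 164 CPM in recent KO samples, with every KO sample above every WT sample (log2 fold change 0.61, SE 0.06, adjusted p = 0.000174). Bcat1, a branched-chain aminotransferase that can act in the last salvage step, stood at 15.7, 14.2, 15.3, 21.9 and 15.4 CPM in WT and at 23.7, 24.5, 27.6, 24.3 and 22.8 CPM in KO samples (log2 fold change 0.58, SE 0.11, adjusted p = 0.0468). Bcat1 lost its call under 13 of 22 alternatives, among them 8 of the 10 that left out a sample (WT replicate 4 and KO replicate 2 were the exceptions), the TPM scale and the length offset. Adi1 kept its call in all of them. The intermediate salvage enzymes Apip (66.0 ± 4.42 and 64.5 ± 5.46 CPM) and Enoph1 (56.5 ± 2.0 and 58.1 ± 2.16 CPM) had adjusted p-values of 0.920 and 0.873, and Got1 stood at 28.3 ± 1.83 and 30.9 ± 3.68 CPM (adjusted p = 0.677).

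Adi1 and Odc1 lie on the same chromosome. Adi1 starts 11.1 Mb from the start of Odc1, and the called genes closest to it are Rps7 (log2 fold change -1.21) and Trappc12 (log2 fold change -0.52). Within 5 Mb of Odc1, 28 genes were tested and none was called. None was called within 5 Mb of Azin1, Oaz1, Oaz2, Amd1, Srm or Mtap either, while 1 called gene lay near Sms and Sat1 (Gm6472) and 1 near Mri1 (Gm42031).

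Of 14 genes of the methionine and S-adenosylmethionine cycle, 10 were tested and none passed. Ahcy, which clears S-adenosylhomocysteine, stood at 132 ± 4.85 and 149 ± 16.1 CPM in WT and recent KO samples (log2 fold change 0.17, adjusted p = 0.428), Ahcyl2 at 5.77 ± 1.05 and 4.33 ± 0.63 CPM (adjusted p = 0.401) and Mtrr at 8.8 ± 1.28 and 7.63 ± 1.03 CPM (adjusted p = 0.668). Myc, the transcription factor known to drive Odc1, and 5 related genes formed the last list, with 5 genes tested and none called. Myc stood at 261, 232, 262, 277 and 235 CPM in WT samples and at 256, 291, 323, 299 and 291 CPM in KO samples. All KO samples but 1 were above the highest WT sample (log2 fold change 0.20, 95% interval 0.05 to 0.36, unadjusted p = 0.0129, adjusted p = 0.328). Mlx stood at 54.3 ± 5.08 and 49.0 ± 6.93 CPM (adjusted p = 0.669) and Max at 15.2 ± 4.53 and 13.2 ± 3.73 CPM (adjusted p = 0.844).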

How the data were processed

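RNA-seq of CD45.2+ GMPs from 5 WT and 5 recent Mpc2 KO samples was analysed, grouped by genotype as the labels give it. The labels call the samples biological replicates. The authors isolated RNA with a NucleoSpin RNA XS kit, made SMARTseq V4 libraries, sequenced paired ends on a NovaSeq and quantified Gencode M27 transcripts with Salmon (1.5.1 in the submitters' processing notes). For each sample the authors deposited estimated counts of reads per transcript and TPM, scaled to length and to 1 total per sample, beside effective lengths. A table of the authors' DESeq2 comparison (mean, log2 fold change, error, statistic, p-values) was not used. SMARTseq reads carry no molecular identifiers or strand, so counts are not independent molecules, floors and intervals of counts cover counting error only, and a gene cannot be told from an overlapping antisense gene.

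The reference was GENCODE M21 on GRCm38, older than that of the authors. Transcripts were matched by identifier without version, 137161 of 140789, and the unmatched held 0.348% to 0.390% of reads. No position was converted. Reads were summed per gene and rounded, and edgeR 4.0.16 (limma 3.58.1, R 4.3.3) was run with TMM, filterByExpr, its quasi-likelihood test, condition only and Benjamini-Hochberg adjustment at 0.05 over 12381 genes, after a test on simulated data. A floor of 3 counts per library was 0.147 to 0.233 CPM. Single values and transcript shares were compared by exact two-sided permutation over samples, the shares with adjustment over 15212 transcripts (19934 where the minimum share was 1%). Copies came from BLAST 2.17.0 (at least 90% identity over at least 200 bases). Replicates differed by far more than sampling noise (chi-square per gene 6.71 to 46.5), so each counted once.

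All 10 genes, Mpc2, copies of at least 1 CPM, and in each wider list the called genes or the 3 with the smallest p were named. Genes near Adi1 and near the 10 genes, and the transcripts under 5%, were named after their values were seen. So were Mpo, Elane, Kit, Cd34, Cd27, Fcgr3, the macrophage markers given, Pf4, Arg1, Arg2, Otc, Nos2, Apip and Enoph1. The genes and lists were chosen with earlier results of these data known. The fits were repeated with RLE, with upper quartile and with library size scaling, without a filter, with a mean count of at least 50, robust dispersions, a length offset, DESeq2 1.42.0, limma on log2(TPM + 1) or log2(TPM + 0.1) at a mean TPM of at least 1, copies summed, a replicate block and each sample left out.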

Additional observations from a re-analysis of the deposited data

Results flagged for a closer look

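Within groups of 5 samples, 10 of 97 sets of values held a sample whose gap to the rest exceeded Dixon's 95% critical value, where chance gives about 1 in 20. WT replicate 4 accounted for 4 of the 10. It held the lowest WT Atp13a2 value (19.0 CPM, the others 25.3 to 27.9) and the highest WT values of Gatm (268 CPM, the others 176 to 185), Got1 (31.5 CPM, the others 26.8 to 27.9) and Bcat1 (21.9 CPM, the others 14.2 to 15.7). Ahcy was highest in WT replicate 3 (140.4 CPM, the others 128 to 132). Among the 10 genes, Oaz2 was highest in KO replicate 2 (73.9 CPM, the others 63.7 to 66.4), and the Amd1 reads that could be assigned were highest in WT replicate 5 (1.92 CPM, the others 0.222 to 0.389) and in KO replicate 3 (1.37 CPM, the others 0.14 to 0.309). Ahcyl2 was highest in KO replicate 4 (5.42 CPM, the others 3.87 to 4.2) and Mtrr lowest in KO replicate 2 (5.8 CPM, the others 7.94 to 8.34).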

How the results depend on the processing

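None of the 9 tested genes was called under any of the 22 alternatives run with the fit across genes, and their smallest adjusted p was 0.288. Amd1 had a value in only 3 of them (no filter, DESeq2 and copies summed) and was not called (adjusted p = 0.838, 0.947 and 0.983). Of 198 log2 fold changes of the 9 genes, 188 kept their direction and 10 reversed, in 3 genes. Scaling by library size alone turned Oaz1 to 0.0226 and Srm to 0.0331, and the TPM scale turned Srm to 0.0074 (pseudocount 1) and 0.0075 (0.1). A length offset turned Mri1 to -0.1433 and the TPM scale to -0.0785 and -0.0799, and with each sample left out Mri1 ran from -0.0392 to 0.0626. No transcript share was called under any alternative. As a share of TPM, the change of Oaz1-207 was 0.6443 percentage points and that of Sms-204 was -0.1321. With each sample left out, shares changed by -2.04 to 0.2179 points for Oaz2-206, -0.3876 to 1.1153 for Oaz2-205, -0.0105 to 1.4969 for Oaz1-201, -1.3032 to 0.702 for Oaz1-207, -1.2806 to 1.7028 for Sms-201 and -1.4043 to 1.6905 for Sms-204.

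Among other genes, Amd2 reversed with the replicate block (-0.0431) and ran from -0.1975 to 0.5525 with each sample left out, and Oaz1-ps was 0.0358 with library size scaling. Eif5a was 0.0073 with upper quartile scaling, 0.0673 with library size scaling and 0.055 and 0.0551 on the TPM scale, and ran from -0.0406 to 0.0423 with each sample left out. Mpc2 stayed lower, but missed the adjusted threshold with robust dispersions (-1.4629, adjusted p = 0.134), a length offset (-1.3975, 0.0741), the TPM scale (-1.3533 and -1.3752, 0.167 and 0.214), the replicate block (-1.4633, 0.0577) and without KO replicate 1 (-1.4147, 0.05002). It ran from -1.6024 to -1.3062 with each sample left out. The causes were not tested.

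The number of all genes called was 206 without a filter and 157 with DESeq2, both from 27909 genes with reads. DESeq2 by default leaves genes with low counts out of its adjustment, so it can adjust over fewer. Calls came to 26 at a TPM pseudocount of 0.1 and 20 with the replicate block, which paired samples by number. No pairing by number was seen: same-numbered samples correlated at -0.177 to 0.058, and none was closest to its own number. Whether same-numbered samples shared a batch was not tested. Leaving out each sample gave 25 to 91 calls, with 91 without KO replicate 2 and 25 without KO replicate 3 or 4. Library size scaling put 56.5% of calls higher in KO GMPs against 36.6% with TMM, and moved the median of all genes to 0.07. Few assigned reads limit Amd1, for a cause that was not tested, and near-identical copies limit Odc1, Oaz1 and Sms.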
